A study of Mus musculus with 32 samples.

Results

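The comparison described here is that of a high-fat diet with its control diet in intestinal progenitor cells of wild-type mice, and its 8 libraries were picked by their group names among the 32 libraries of the study. There were 4 libraries from mice on the diet labelled High Fat and 4 from mice on the diet labelled High Fat Control, and every gene with enough counts was tested, 12460 of the 50686 in the deposited table. The mice were C57BL6 animals that carried the drivers Villin-CreER, active in the intestinal epithelium, and Lgr5-GFP-IRES-CreER, a knock-in at the stem cell gene Lgr5, with no floxed Cpt1a allele. These drivers were present on both diets, and each group held 2 female and 2 male samples per the labels. Age, time on the diet, its composition and the gut region were not given in the sources used here, and neither was whether the Cre recombinases had been induced. Cells were dissociated from crypts and sorted as EpCAM-positive, CD24-low or negative cells with a low Lgr5-eGFP signal, after exclusion of CD31, Ter119, CD45 and 7AAD. The other groups drawn on below are progenitors of the same sort from Cpt1a fl/fl mice with both drivers, called Cpt1a-deficient here, and stem cells, the high-eGFP fraction of the wild-type mice.

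Progenitors are the dividing daughters of intestinal stem cells and give rise to absorptive enterocytes and to the secretory goblet, Paneth, enteroendocrine and tuft lineages. Fatty acids enter a cell through transporters and binding proteins and are activated to acyl-CoA. Long chains then reach mitochondria by the carnitine shuttle, whose entry step is carried out by Cpt1a, and are shortened to acetyl-CoA by beta-oxidation. Many genes of these steps are targets of the fatty acid receptors PPARα, PPARδ and PPARγ, which bind DNA with RXR.

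Total counts in the 8 libraries ran from 3307711 (control library c) to 6240202, with a median of 5792568.5. The letters a to d number a group's columns from left to right and are names only. The table holds its 32 columns in 4 runs of 8, each run with 1 library of every group, and same-letter libraries share a run. Xist exceeded Ddx3y in libraries a and b of both diets and Ddx3y exceeded Xist in c and d, so runs are nested in the sexes. Correlations of log2 levels between libraries were 0.963 to 0.974 within a diet and 0.958 to 0.976 across diets. Epcam, the epithelial adhesion protein used in the sort, read 2174 to 2606 CPM (counts per 1000000, scaled between libraries by edgeR). Ptprc (CD45) read at most 0.163 CPM and Pecam1 (CD31) at most 0.922 CPM. Lgr5 itself read at most 39.2 CPM on control diet and 18.2 to 40.5 CPM on high fat, while the stem cells of the same genotype read 300.4 to 548.2 CPM. Olfm4, another stem cell marker, read 1639 to 3135 CPM in these progenitors and 9942 to 13964 CPM in the stem cells, so both followed the labels of the sort.

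In the edgeR fit of all 16 progenitor libraries, a small set of genes had more RNA in progenitors from mice on high fat. Most of them stood in lists of fat genes, with only 1 in the fatty acid uptake list and 1 in the peroxisomal list. With edgeR's quasi-likelihood test and Benjamini-Hochberg adjustment, 11 of 12460 genes (0.0883%) passed an adjusted p of 0.05, and all 11 were higher on high fat, among them Paqr7, Acaa1b, Slc25a20, Acaa2, Acadl, Slc27a4, Hsdl2, Mettl7b, Hadha and Acacb. No gene passed as lower. At an unadjusted p under 0.05, 496 genes (3.98%) were higher and 384 (3.08%) lower. DESeq2, run as an alternative, called 44 genes (0.353%), 37 higher (0.297%) and 7 lower (0.0562%), with all 11 among them. The call did not hold in every fit. With the column run as a block in the 16-library fit no gene passed, and the smallest adjusted p was 0.0634. With only the 8 libraries of the comparison and the same block, an alternative chosen after seeing the data, edgeR called 77 genes, 67 higher (0.561%) and 10 lower (0.0837%). There, 10 of the 11 genes passed. Without control library a, or without control library c, no gene passed in edgeR. In these and all other alternatives run, each of the 11 genes kept a positive log2 fold change. The labels do not say that the libraries of a group came from separate animals, so p-values measure only the spread between these libraries.

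**Figure D1:**
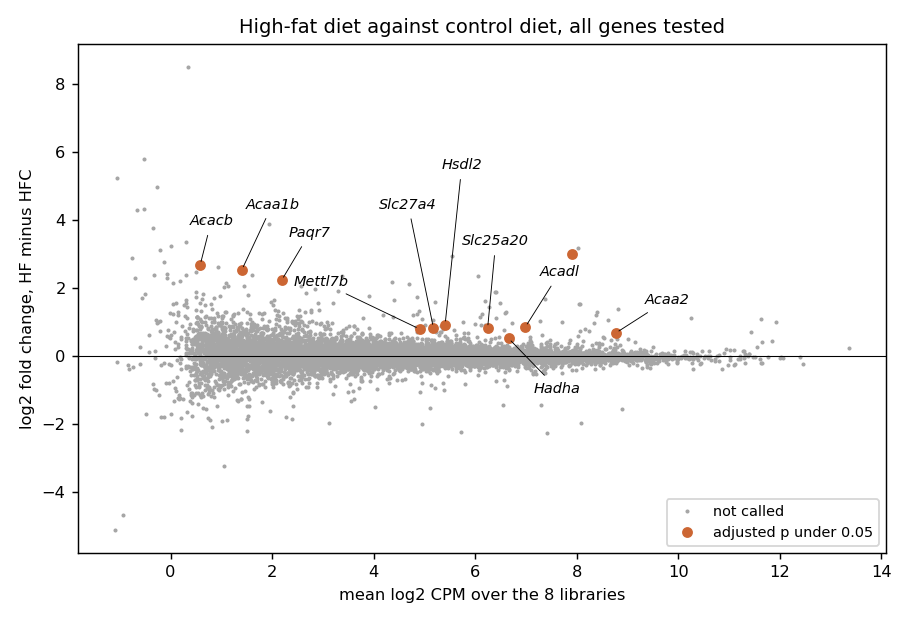
Each point is 1 of 12460 genes, with the mean log2 CPM over the 8 libraries on the x axis and the log2 fold change, high fat minus control diet, on the y axis; orange points are the 11 genes with an adjusted p under 0.05. Names mark 10 of them; all 11 lie above 0, and Acacb, Acaa1b and Paqr7 lie above 2.

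In the list of mitochondrial beta-oxidation genes, 4 of 23 rose and none fell, against 0.0883% of all genes. The median of the 23 was 0.17, against 0.00229 over all genes. Acadl, the long-chain acyl-CoA dehydrogenase (chromosome 1, 66830839 to 66863277, minus strand, GRCm38), read 83.5, 99.3, 96.2 and 99.4 CPM in control libraries a to d and 156, 137, 206 and 187 CPM in high-fat libraries a to d. That was a log2 fold change of 0.86 ± 0.14 (SE, n = 4 and 4, edgeR adjusted p = 0.0188). Control libraries were tightly grouped and all lay below the lowest high-fat library. Acaa2, the thiolase of the last step, read 337, 342, 324 and 381 CPM on control diet and 500, 455, 631 and 640 CPM on high fat, and rose by 0.68 ± 0.11 (SE, edgeR adjusted p = 0.0188). Per transcript length it was the most abundant of these 4 genes, with mean levels of 341.3 TPM on control diet and 534.0 TPM on high fat. Hadha, the alpha subunit of the trifunctional protein (chromosome 5, 30118304 to 30155162, minus strand), read 83.8, 81.0, 83.3 and 87.9 CPM on control diet and 108, 111, 120 and 146 CPM on high fat. Its log2 fold change of 0.52 ± 0.09 (SE, edgeR adjusted p = 0.0327) was the smallest of the 11, with no overlap between diets. Hsdl2, a dehydrogenase-like protein that carries a sterol carrier domain (chromosome 4, 59581563 to 59618689, plus strand), read 30.4, 29.2, 31.1 and 32.9 CPM on control diet and 50.0, 41.8, 65.4 and 79.1 CPM on high fat (0.93 ± 0.16, SE, edgeR adjusted p = 0.0327). High-fat libraries c and d were the upper pair for all 4 genes.

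Other genes of the beta-oxidation list did not pass in the 16-library edgeR fit. With the run as a block in the 8-library fit, 6 of the 23 rose (0.561% of all genes), with Acadvl (adjusted p = 0.00728) and Eci2 (0.0103) now among them, and DESeq2 called both (0.000559 and 0.0233). Acadvl, the very long-chain dehydrogenase, read 295, 301, 301 and 333 CPM on control diet and 415, 374, 468 and 544 CPM on high fat, a difference of 0.55 ± 0.11 (SE, edgeR adjusted p = 0.0632). Eci2, an isomerase for unsaturated chains, differed by 0.57 ± 0.13 (SE, adjusted p = 0.196) and Hadhb, the partner of Hadha, by 0.32 ± 0.10 (SE, adjusted p = 0.445). Echs1, the short-chain hydratase, read lower, at 172 to 208 CPM on control diet and 139 to 180 CPM on high fat (-0.28, adjusted p = 0.598), and its groups overlapped. Nuclear genes of the respiratory chain gave no call among 65, with 18 positive and a median of -0.04. The tricarboxylic acid cycle likewise gave none among 20, with a median of -0.03. Oxct1, which starts the use of ketone bodies, read 122, 114, 130 and 159 CPM on control diet and 93.2, 103, 99.8 and 91.9 CPM on high fat. Its log2 difference of -0.43 ± 0.09 (SE) missed the threshold in edgeR (adjusted p = 0.113) but passed in DESeq2 (adjusted p = 0.00611), and its groups did not overlap.

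Of the 9 tested genes of the carnitine shuttle and its control, 2 rose and none fell, against 0.0883% of all genes. Their median was 0.39. Slc25a20, the carnitine-acylcarnitine exchanger of the inner membrane (chromosome 9, 108662088 to 108684641, plus strand), read 51.7, 54.6, 61.5 and 62.2 CPM on control diet and 83.6, 80.7, 108 and 133 CPM on high fat. It rose by 0.82 ± 0.13 on the log2 scale (SE, edgeR adjusted p = 0.0188), without overlap. Acacb, the carboxylase that makes malonyl-CoA, an inhibitor of Cpt1, at mitochondria (chromosome 5, 114146535 to 114250761, plus strand), was near the detection limit, with counts of 3, 4, 0 and 2 in control libraries and 17, 14, 10 and 25 in high-fat libraries. Its fitted log2 fold change was 2.68 ± 0.49 (SE, edgeR adjusted p = 0.0407), and in the limma fit of log2(TPM + 1) its adjusted p was 0.542. Cpt1a, the entry step, read 202, 159, 197 and 249 CPM on control diet and 234, 230, 276 and 327 CPM on high fat. The groups overlapped, and the difference of 0.40 ± 0.15 (SE) did not pass in edgeR (adjusted p = 0.614), but it did in the 8-library fit with the run as a block (adjusted p = 0.0404). Cpt2, which completes the shuttle, differed by 0.39 ± 0.15 (SE, adjusted p = 0.638).

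Of 19 tested genes of fatty acid uptake, binding and activation 1 rose, against 0.0883% of all genes. Slc27a4, the main fatty acid transport protein of the small intestine (chromosome 2, 29802634 to 29817522, plus strand), read 24.03, 24.9, 32.0 and 27.6 CPM on control diet and 42.4, 39.5, 51.2 and 59.2 CPM on high fat. It rose by 0.83 ± 0.15 (SE, edgeR adjusted p = 0.0327), with all high-fat libraries above all control libraries. Fabp1, the liver-type fatty acid binding protein, read 46.4, 120, 60.0 and 153 CPM on control diet and 732, 445, 1104 and 1172 CPM on high fat. Its fold was 9.06, and at 3.18 ± 0.57 on the log2 scale (SE) the edgeR adjusted p was 0.0764. All high-fat libraries lay above all control libraries, and within the 4 column runs the ratio ranged from 3.70 to 18.4. DESeq2 called it (adjusted p = 1.61e-07), and the 8-library fit with the run as a block did not. Fabp2, the intestinal-type protein, differed by 0.75 ± 0.21 (SE, edgeR adjusted p = 0.398; DESeq2 adjusted p = 0.038), and the scavenger receptor Cd36 read 2.39 to 4.61 CPM on control diet and 2.77 to 9.90 CPM on high fat, with overlap.

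In peroxisomes, 1 of 23 genes rose, against 0.0883% of all genes, and the median was 0.17. Acaa1b, a peroxisomal thiolase (chromosome 9, 119148023 to 119157093, minus strand), had counts of 9, 4, 2 and 4 in control libraries and 31, 17, 36 and 40 in high-fat libraries. The corresponding levels were 1.51, 0.682, 0.615 and 0.870 CPM against 5.06, 2.77, 6.36 and 8.84 CPM, a log2 fold change of 2.53 ± 0.40 (SE, edgeR adjusted p = 0.0188). Acaa1b has a closely related copy, Acaa1a, so reads could be divided between them and its value is uncertain. Acaa1a was far more abundant, at 139 to 170 CPM on control diet and 161 to 198 CPM on high fat, and differed by 0.23 (adjusted p = 0.676). Ech1, an isomerase, differed by 0.40 ± 0.10 (SE, edgeR adjusted p = 0.249) without overlap, and passed in the 8-library fit with the run as a block (0.0349) and in DESeq2 (0.0435).

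Paqr7 and Mettl7b stood in none of the lists of fat genes. Paqr7, a membrane progesterone receptor (chromosome 4, 134496697 to 134510235, plus strand), had counts of 7, 14, 5 and 13 in control libraries and 38, 38, 62 and 67 in high-fat libraries, and rose by 2.23 ± 0.34 (SE, edgeR adjusted p = 0.0188). Mettl7b, a methyltransferase-like protein of the endoplasmic reticulum and lipid droplets (chromosome 10, 128958274 to 128960988, minus strand), read 19.99, 21.3, 19.99 and 28.9 CPM on control diet and 37.7, 42.6, 36.4 and 40.4 CPM on high fat. Its rise of 0.80 ± 0.14 (SE, edgeR adjusted p = 0.0327) was spread evenly over the high-fat libraries, with library b the highest. In contrast, high-fat libraries c and d both exceeded a and b for 9 of the 11 genes, which was the case for 18.7% of all genes tested. On control diet, c and d exceeded a and b for 3 of the 11 and lay below them for 2, against 18.2% and 17.3% of all genes. Libraries c and d were those with Ddx3y above Xist, and the part of sex or run in this pattern was not tested.

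**Figure D2:**
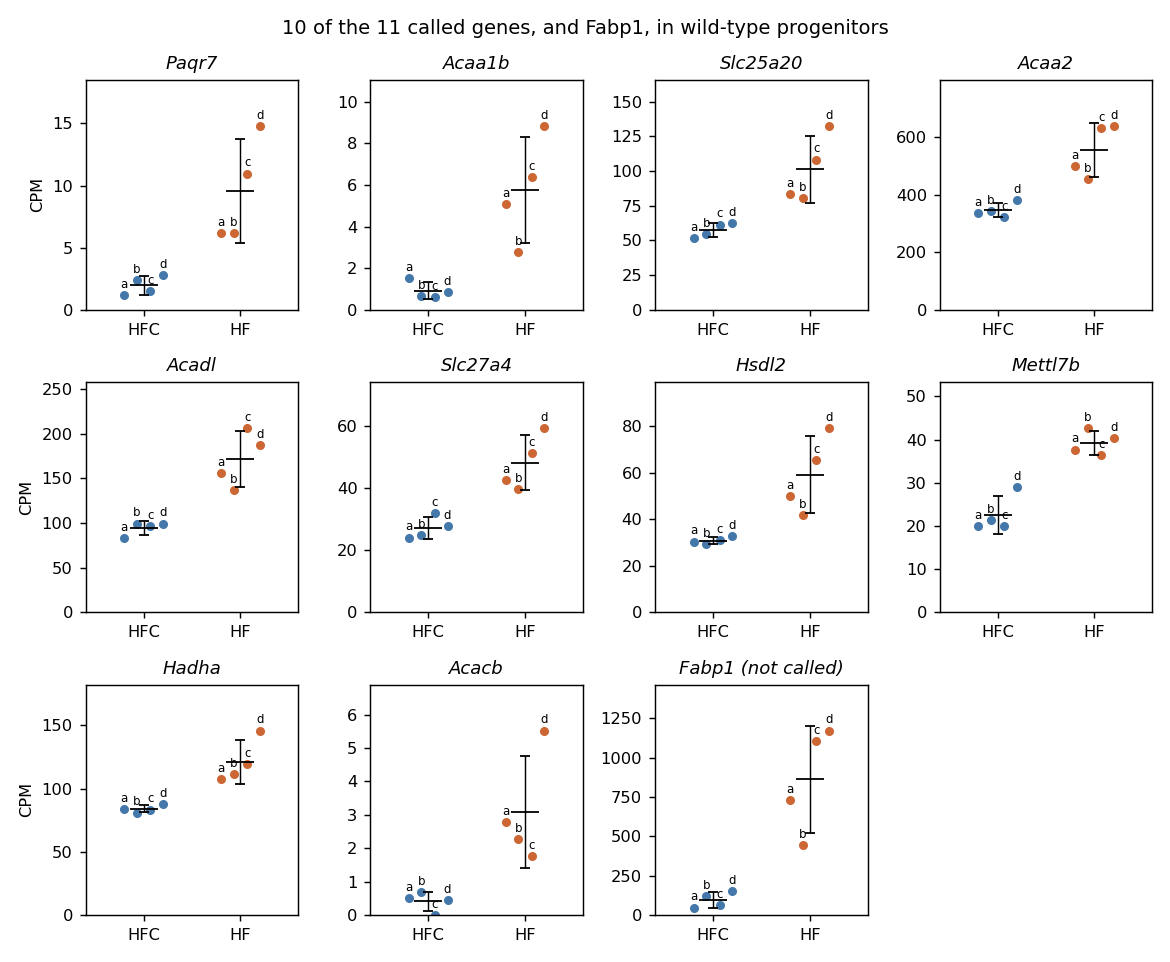
Points are single libraries (letters a to d) of wild-type progenitors on control diet (HFC, blue) and high fat (HF, orange), with levels in CPM on linear axes from 0, and black marks give the mean and SD of 4 libraries. The 10 called genes drawn show no overlap between diets, and neither does Fabp1, which was not called.

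A list of 45 PPAR target genes, of which 40 were tested, held 7 of the 11 genes, against 0.0883% called over all genes. Among the 7 were Acaa1b, Slc25a20, Acaa2, Acadl, Slc27a4 and Hadha. The list shares these genes with the lists above, so it is no separate evidence. In all, 34 of the 40 were positive, the median was 0.49, and 18 had no overlap in the upward direction, against 2.47% of all genes. Summed over the list, the level was 5059, 5079, 5183 and 5689 CPM in control libraries and 7249, 6407, 8906 and 9507 CPM in high-fat libraries. Me1, the malic enzyme that supplies NADPH, read 4.87, 6.31, 2.46 and 4.35 CPM on control diet and 18.8, 16.3, 25.6 and 36.2 CPM on high fat (2.34 ± 0.42, SE, edgeR adjusted p = 0.0632). Cyp4a10, a fatty acid omega-hydroxylase with close copies in its cluster that make its value uncertain, had counts of 2, 8, 2 and 6 on control diet and 54, 34, 106 and 103 on high fat (3.87 ± 0.71, SE, adjusted p = 0.0764). Retsat, which saturates retinol, read 122, 121, 125 and 147 CPM on control diet and 175, 155, 227 and 243 CPM on high fat (0.64 ± 0.13, SE, adjusted p = 0.0926). Creb3l3, a membrane-bound factor that drives apolipoprotein genes, read 10.1, 9.38, 14.5 and 18.7 CPM on control diet and 37.9, 28.6, 90.7 and 70.0 CPM on high fat (2.13 ± 0.43, SE, adjusted p = 0.144). In the 8-library fit with the run as a block, 16 of the 40 rose, against 0.561% of all genes, and Me1 (adjusted p = 0.0144), Cyp4a10 (0.00134), Retsat (0.00529) and Creb3l3 (3.61e-05) were among them. DESeq2 also called these 4 genes. For each of them the high-fat libraries lay above the control libraries, with c and d the upper pair. The receptors themselves gave no call: Ppara read 20.3 to 33.1 CPM on control diet and 17.1 to 43.3 CPM on high fat, Pparg differed by -0.26 and Ppard by -0.38 (3.19 to 4.00 CPM against 2.43 to 3.18 CPM), and the sign of Ppara turned when single libraries were left out. The share of each lineage in a sort is not known, and in such pooled cells fewer cells of a type and less RNA per cell cannot be told apart.

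Promoter sequences are shown for Fabp1 and Acadvl, PPAR targets just outside the threshold whose windows held a match to the receptors' DNA site or its half-site. Me1, Cyp4a10 and Retsat, also PPAR targets just outside the threshold, were not among the genes with a match. PPAR and RXR bind a direct repeat of AGGTCA half-sites with 1 base between them. RefSeq sequence (GRCm38.p6) of the 250 bases before the annotated start was at hand for 9 of the 11 called genes and 34 of the 40 PPAR targets, and both strands were searched. The exact repeat AGGTCANAGGTCA was in 0.0335% of 32851 promoter windows and in none of the windows of these genes. A relaxed form with 3 positions freed, NGGNCANAGGNCA, which includes the exact one, was in 0.694% of windows and, among the called genes and PPAR targets, in that of Fabp1 alone. The half-site AGGTCA was more common than either repeat, in 4607 of the 32851 windows. It was in 8 of the 34 PPAR targets, Acadvl, Cpt1a and Creb3l3 among them, and in none of the 9 called genes. The 32851 windows belong to 27025 genes, so the first count is of windows and the others are of genes. Whether PPAR targets held the half-site more often than other genes was not tested. In the Fabp1 window (chr6:71199629-71199878, plus strand), the match begins 67 bases before the start and reads AGGCCATAGGTCA on the opposite strand. In the Acadvl window (chr11:70015429-70015678, minus strand), a single half-site begins 87 bases before the start. Capitals mark the relaxed repeat in Fabp1 and the half-site in Acadvl.
Fabp1: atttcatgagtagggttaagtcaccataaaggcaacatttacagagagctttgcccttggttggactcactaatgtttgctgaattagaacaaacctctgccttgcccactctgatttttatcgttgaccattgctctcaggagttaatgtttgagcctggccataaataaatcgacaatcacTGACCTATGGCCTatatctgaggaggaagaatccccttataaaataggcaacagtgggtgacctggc
Acadvl: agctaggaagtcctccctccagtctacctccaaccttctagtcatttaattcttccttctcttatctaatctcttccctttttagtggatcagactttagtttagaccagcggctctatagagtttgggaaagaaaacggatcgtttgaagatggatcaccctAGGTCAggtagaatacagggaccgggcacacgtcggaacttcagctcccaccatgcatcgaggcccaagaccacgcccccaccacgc
A match describes letters in a window, and binding was not measured here.

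Genes that handle absorbed fat further downstream gave no call in the 16-library edgeR fit. In the 8-library fit with the run as a block, Apoc2 (adjusted p = 0.0456), Mgll (0.00749), the thioesterase Acot2 (0.0463) and the retinal dehydrogenase Aldh1a1 (0.0165) rose, and DESeq2 called Apoa4 (0.00729), Apoc2 (0.000553), Mgll (0.00059), Acot1 (0.000302) and Aldh1a1 (0.0041). Among 23 genes of triglyceride synthesis and chylomicron assembly 19 were positive, with a median of 0.17. Apoa4, an apolipoprotein of chylomicrons, read 15.3, 52.5, 13.5 and 54.0 CPM on control diet and 109, 88.4, 244 and 265 CPM on high fat (2.36 ± 0.57, SE, edgeR adjusted p = 0.294). Its high-fat libraries were all above the control libraries, whose levels fell into a low pair, a and c, and a higher pair, b and d. Apoc2, a cofactor of lipoprotein lipase, read 2.77 to 8.02 CPM on control diet and 12.2 to 39.1 CPM on high fat (1.91, adjusted p = 0.185). Mgll, which releases the last fatty acid of a monoglyceride, read 2.18 to 4.92 CPM on control diet and 9.31 to 16.1 CPM on high fat (1.86, adjusted p = 0.197). Of 9 acyl-CoA thioesterases 7 were positive with a median of 0.40, led by Acot1 at 10.1 to 14.6 CPM against 17.1 to 71.3 CPM (1.66, adjusted p = 0.161). Retinoid and omega-hydroxylase genes had a median of 0.45 over 16, and Rbp2, the retinol carrier of enterocytes, read 32.1, 35.8, 41.2 and 67.0 CPM on control diet and 106, 73.7, 237 and 129 CPM on high fat (1.64, adjusted p = 0.533).

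Of 18 genes of fatty acid synthesis 6 were positive and the median was -0.05. The only call was Acacb, described above, against 0.0883% called over all genes. Scd2, a stearoyl-CoA desaturase, read 173, 200, 176 and 114 CPM on control diet and 87.0, 91.0, 28.1 and 36.0 CPM on high fat (-1.44 ± 0.36, SE, edgeR adjusted p = 0.308). High-fat libraries c and d were the lowest, and no high-fat library reached the lowest control library. Sterol synthesis gave no call among 26, with a median of -0.05.

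**Figure D3:**
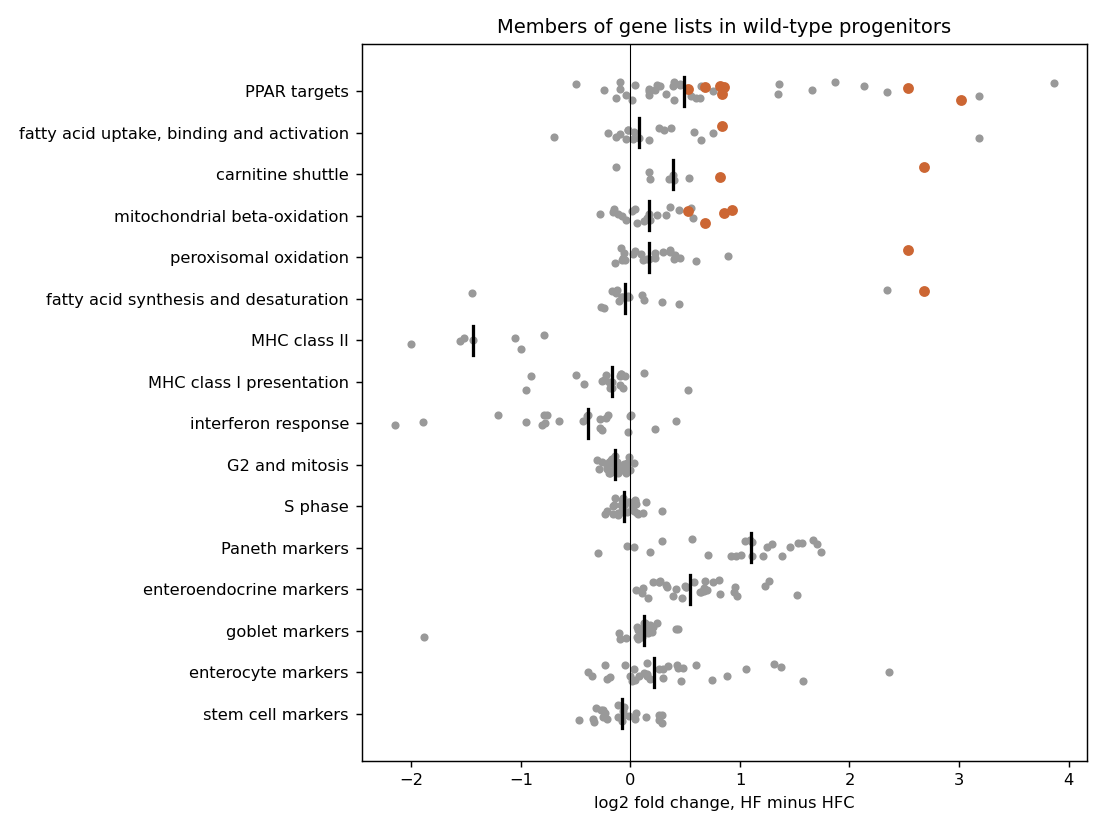
Points are single tested genes of each list, placed by their log2 fold change, high fat minus control diet, with orange for an adjusted p under 0.05 and a black bar at the list's median. Called genes stand to the right of 0 in the fat lists, and all 7 MHC class II genes stand to the left without a call.

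Antigen presentation genes had the largest list median below 0. MHC class II proteins present extracellular peptides, are induced in crypt cells by interferon gamma through Ciita, and are loaded with the help of Cd74 and the H2-DM proteins. All 7 tested genes were lower on high fat and 6 had no overlap, against 1.6% of all genes for that direction, but none passed in edgeR, and the median was -1.44. Cd74, the invariant chain, read 902, 978, 776 and 913 CPM on control diet and 528, 383, 203 and 95.4 CPM on high fat (-1.56 ± 0.44, SE, adjusted p = 0.437). H2-Ab1 read 280, 350, 228 and 268 CPM on control diet and 172, 135, 65.0 and 41.7 CPM on high fat (-1.44 ± 0.47, SE, adjusted p = 0.550). H2-Aa read 72.1, 95.2, 49.5 and 69.6 CPM on control diet and 32.3, 25.5, 7.42 and 4.86 CPM on high fat (-2.01 ± 0.70, SE, adjusted p = 0.596). High-fat libraries c and d lay below a and b for all 7 genes, which held for 18.6% of all genes, and for Cd74 the high-fat libraries were more spread than the controls. On control diet, c and d lay below a and b for 3 of the 7 and above them for none, against 17.3% and 18.2% of all genes. Ciita itself read 3.38 to 8.87 CPM on control diet and 1.94 to 6.86 CPM on high fat, with overlap (-0.79, adjusted p = 0.684). None of the 7 passed in the 8-library fit with the run as a block either. White blood cell markers, which include cells rich in MHC class II, summed to 22.9 to 40.9 CPM on control diet and 22.9 to 26.3 CPM on high fat, with 14 of 29 at 0 in all 8 libraries. Most of that sum was Itgam, at 16.2 to 32.3 CPM on control diet and 13.9 to 18.1 CPM on high fat. The part of white blood cells in the class II levels was not tested.

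Class I presentation and interferon response genes had medians below 0 as well, without a call in the 16-library edgeR fit. Of 19 class I genes 17 were negative, with a median of -0.17, and H2-Q10 differed by -0.96 ± 0.25 (SE, edgeR adjusted p = 0.296). In the 8-library fit with the run as a block H2-Q10 fell (adjusted p = 0.00661), the only class I call there. Of 22 interferon response genes 19 were negative, with a median of -0.39. Irf1, a transcription factor of that response, read 252, 288, 274 and 290 CPM on control diet and 237, 231, 176 and 194 CPM on high fat (-0.40 ± 0.09, SE, adjusted p = 0.196). DESeq2 called it lower (adjusted p = 0.0219). Its groups did not overlap, with libraries c and d again the lower pair. Class I and other H2 genes include near-identical copies, so the division of reads among them is uncertain. Reg3g and Reg3b, antibacterial lectins, were highest in control libraries c and d: Reg3g read 199, 157, 1689 and 755 CPM on control diet and 82.8 to 250 CPM on high fat (-1.97, adjusted p = 0.655), and Reg3b reached 1358 CPM in control library c.

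Markers of the differentiated lineages were examined because the sort could hold their cells or precursors. Paneth cell markers, antimicrobial peptides and lysozyme, had a median of 1.10 over 24 tested genes, 22 of them positive and none called. Their summed level was 6577, 17213, 8512 and 7873 CPM in control libraries and 16029, 27765, 19058 and 17307 CPM in high-fat libraries. Control library b thus overlapped with the high-fat group, and high-fat library b was the highest of all. Lyz1, lysozyme, read 1356, 3830, 1966 and 1841 CPM on control diet and 4014, 5568, 5048 and 4580 CPM on high fat (1.09 ± 0.38, SE, edgeR adjusted p = 0.576). Defa21, a defensin, read 33.1, 101, 39.1 and 51.4 CPM on control diet and 130, 293, 110 and 136 CPM on high fat (1.57 ± 0.59, SE, adjusted p = 0.641). Library b was the highest for it on either diet. In the 8-library fit with the run as a block, 13 of the 24 rose, against 0.561% of all genes. That fit was chosen after seeing the data. In it, Defa21 had an edgeR adjusted p of 3.75e-06 and Lyz1 of 0.0135. With the same block in the fit of all progenitor libraries no gene passed, and DESeq2 called none of the 13. The defensins are near-identical copies of one another, so their separate values are uncertain and their calls are not independent.

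Enteroendocrine markers were positive for all 32 tested genes, with a median of 0.54, and none passed in edgeR. Of the 32, 9 had no overlap in the upward direction, against 2.47% of all genes. Summed, they read 1092, 1463, 1488 and 1618 CPM on control diet and 1633, 2349, 2132 and 2098 CPM on high fat. The lowest high-fat library, a, was just above the highest control library, d. Gip, the incretin hormone released on fat and sugar intake, read 39.8, 62.3, 23.4 and 64.2 CPM on control diet and 103, 111, 131 and 106 CPM on high fat (1.23 ± 0.28, SE, adjusted p = 0.2). Neurog3, the factor that specifies these cells, read 8.87 to 11.8 CPM on control diet and 13.7 to 22.6 CPM on high fat (0.65 ± 0.22, SE, adjusted p = 0.540). Chga and Cck, a granule protein and a hormone, were also without overlap, at 0.76 and 0.70. In the 8-library fit with the run as a block, 5 of the 32 rose, against 0.561% of all genes, and DESeq2 called Gip (adjusted p = 0.000553). Goblet, tuft, enterocyte and stem cell markers gave no call in the blocked 8-library fit or in the 16-library fit except for the enterocyte genes Slc6a19 and Alpi in the blocked fit, and their medians were 0.12, 0.29, 0.22 and -0.07. Of these lists, DESeq2 called the enterocyte genes Slc6a19 (adjusted p = 0.00611) and Apoa4 (0.00729) as higher. Paneth and enteroendocrine sums were thus higher in the same group as the fat genes, and their part in the fat gene levels was not tested.

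**Figure D4:**
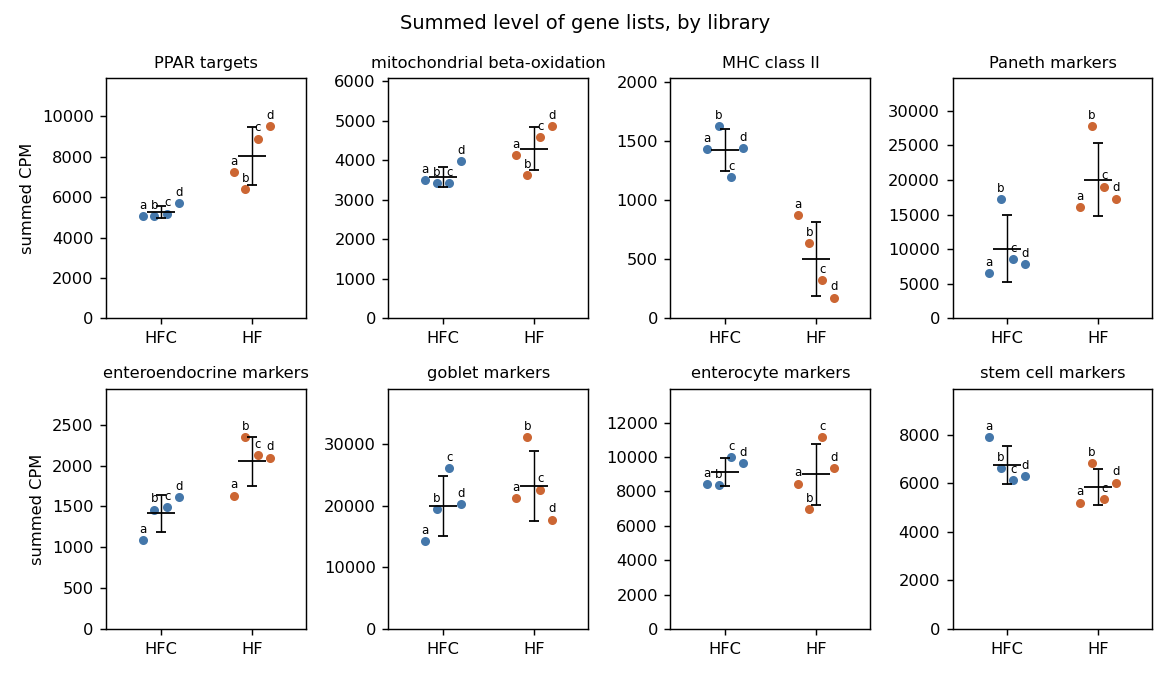
Points are the summed CPM of all genes of a list in single libraries (letters a to d), on control diet (HFC, blue) and high fat (HF, orange), with the mean and SD of 4 libraries in black and axes from 0. MHC class II sums do not overlap between diets, Paneth marker sums do through control library b, and stem cell and enterocyte sums overlap.

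Genes of G2 and mitosis gave no call among 29, but 27 were negative, with a median of -0.14 and a lowest value of -0.30, and S phase genes had a median of -0.05 over 27. Foxm1, which drives them, read 35.1, 35.8, 40.0 and 37.0 CPM on control diet and 28.6, 30.8, 28.8 and 32.7 CPM on high fat (-0.29 ± 0.13, SE, edgeR adjusted p = 0.683). Its groups did not overlap. Genes typical of the proximal gut, a list that includes Fabp1, Apoa4 and Rbp2, summed to 475 to 802 CPM on control diet and 1021 to 2273 CPM on high fat; the distal list summed to 312 to 435 CPM and 406 to 540 CPM. Whether the sampled region differed between diets was not tested.

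The diet difference of the 11 genes was set beside that in Cpt1a-deficient progenitors, from Cpt1a fl/fl mice with both drivers, and in wild-type stem cells. Cpt1a read at most 29.2 CPM in the Cpt1a-deficient progenitors on control diet and 26.7 CPM on high fat, against 159 CPM in the lowest wild-type library. There, edgeR called 39 genes (0.313%), 30 of them higher (0.241%), and 8 of the 11 genes were among them, which is 72.7% of the 11 and 20.5% of the 39. In wild-type stem cells 31 genes were called (0.25%), 26 of them higher (0.21%), and 3 of the 11 were among them, including Acadl and Hadha. All 11 were positive in stem cells, and 10 of 11 in Cpt1a-deficient progenitors. For Acadl the log2 fold change was 0.86 in wild-type progenitors, 0.83 in Cpt1a-deficient progenitors and 0.86 in stem cells, and for Hadha it was 0.52, 0.54 and 0.50.

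No gene passed a test of the difference between these diet effects in edgeR. For wild-type minus Cpt1a-deficient progenitors edgeR called 0 of 12460 genes, with 561 at an unadjusted p under 0.05 and a smallest adjusted p of 0.969, and DESeq2 also called 0. For wild-type progenitors minus stem cells edgeR called 0 of 13088, with 423 at an unadjusted p under 0.05, and DESeq2 called 1, the predicted gene Gm2436. In wild-type progenitors Gm2436 was at 0 in all control libraries and in high-fat library d, and at 11.1, 9.28 and 10.96 CPM in high-fat libraries a to c. Mettl7b, at 0.80 in wild-type and -0.02 in Cpt1a-deficient progenitors, had the smallest unadjusted p among the 11 for the first difference, 0.000609 (difference 0.82 ± 0.20, SE), and an adjusted p of 0.969. Paqr7, at 2.23 in wild-type progenitors and 0.53 in stem cells, had it for the second, 0.00123 (difference 1.71 ± 0.48, SE, adjusted p = 1.0).

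**Figure D5:**
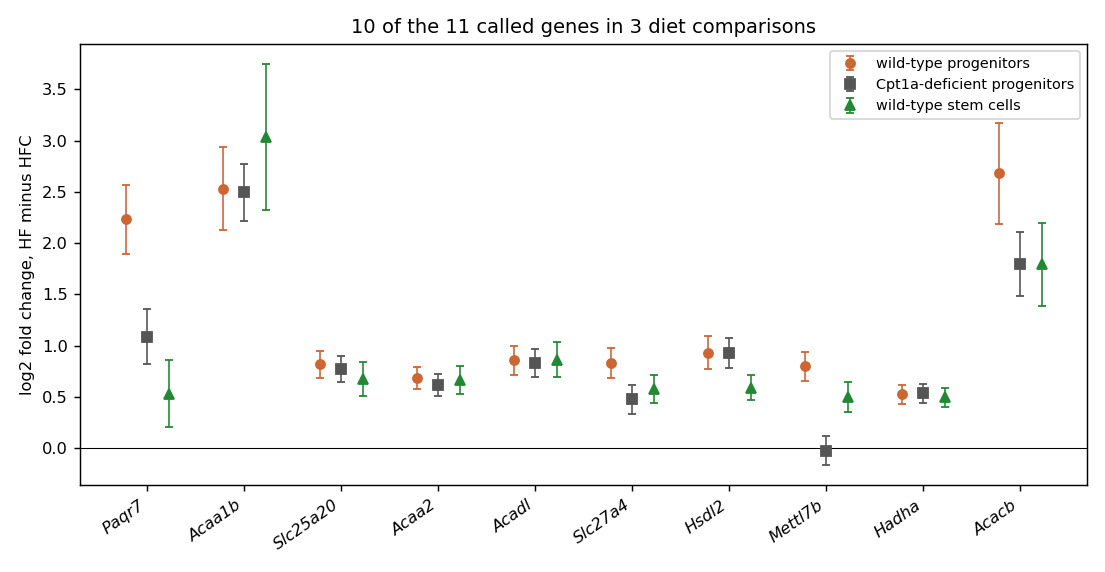
Log2 fold changes, high fat minus control diet, with SE bars for 10 of the 11 genes in wild-type progenitors (orange circles), Cpt1a-deficient progenitors (grey squares) and wild-type stem cells (green triangles). All values are above 0 except Mettl7b in Cpt1a-deficient progenitors, at -0.02, and no difference between groups passed the adjusted threshold.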

How the data were processed

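RNA from sorted cells (polyA selected, TRI reagent, Clontech RNA-seq preparation, per the labels' protocols) was sequenced for 32 samples in 8 groups of 4. The submitters' processing notes name STAR 2.5.3a, RSEM 1.3.0, SAMtools 1.3 and the mm10 build; annotation and strand setting are not given in the sources used here. The deposited table of estimated counts (expected counts, already whole numbers) was the basis of the tests, and the deposited table of log2(TPM + 1) values served 1 alternative and the levels in TPM. Columns were assigned to groups by their names. Gene positions come from GENCODE M21 (GRCm38).

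Tests used edgeR 4.0.16 (R 4.3.3): TMM scaling, filterByExpr with a minimum count of 10, robust quasi-likelihood fit of all 16 progenitor libraries, so that 4 groups share the spread, and Benjamini-Hochberg adjustment over all genes tested (threshold 0.05). SE is the log2 fold change divided by the root of F. The difference from stem cells was fitted on 32 libraries over 13088 genes. Alternatives were DESeq2 1.42.0, limma 3.58.1, scaling, filter, column run, Xist minus Ddx3y, the 8 libraries alone and each library left out. The script was tested on simulated data.

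Deviations from the group means correlated between same-run libraries of the 2 diets (0.139, 0.142, 0.254 and 0.145). Pairs of different runs ranged from -0.213 to 0.138, the highest being control library b with high-fat library a. By the criterion that every same-run pair exceed 0.1, blocked fits are printed beside the results. Control library b with high-fat library a exceeded 0.1 too. Xist exceeded Ddx3y in both of these libraries, so run and sex cannot be told apart by this criterion. The fit without the block was kept as the main result, as planned, and the labels do not say what a run is. The members and the 44 gene lists were chosen with earlier results of these data known. Genes were named by rule: sort and genotype checks, up to 4 called members of a list or the 2 with the smallest p, and called genes with a mean log2 CPM of at least 2. A further 29 genes were added to these after their values were seen, as were the other genes named. Some results are not reported here.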

Additional observations from a re-analysis of the deposited data

Results flagged for a closer look

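Values of named genes and summed lists were examined for a library far from the other 3 of its group by Dixon's ratio of gap to range. Of 256 groups of 4 checked, 13 held such a library, and chance alone gives about 1 in 20. On control diet, library d stood above the others for Retsat (147 CPM, others 121 to 125), Mettl7b (28.9 CPM, others 19.99 to 21.3), the summed beta-oxidation genes (3972 CPM, others 3420 to 3501) and the summed antioxidant genes (9135 CPM, others 7183 to 7332). Control library b stood apart for sterol synthesis (3713 CPM, others 2624 to 2745), for Nrarp, a Notch target (23.7 CPM, others 32.9 to 34.4), for Klf5 (611 CPM, others 782 to 808) and for G0s2 (0.171 CPM, the others 0). On high fat, library b stood apart for the Paneth gene Mptx1 (102 CPM, others 24.5 to 34.3), for the stem cell marker Clca3b (702 CPM, others 550 to 572), for summed Wnt targets (1067 CPM, others 807.1 to 847.9) and, low, for the antioxidant genes (7023 CPM, others 8381 to 8597). High-fat library d stood above the others for Apoc2 (39.1 CPM, others 12.2 to 16.1).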

How the results depend on the processing

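The 11 calls in wild-type progenitors became 44 with DESeq2 (37 higher, 7 lower, all 11 kept), 18 without a filter on low counts (16 higher, 2 lower), 7 with the Xist minus Ddx3y level as a covariate, 4 with only the 8 libraries, 0 with the replicate block on all 16 and 77 with the replicate block on the 8 libraries (67 higher, 10 lower, chosen after seeing the data). DESeq2's size factors gave 11 and limma on log2(TPM + 1) gave 11, of which 9 were shared. Leaving out 1 library gave 0 to 16 calls: 0 without control library a or c, 1 without control library b, 4 without control library d, 1 without high-fat library c or d, 10 without high-fat library a and 16 without high-fat library b. The cause of these changes was not tested. The difference from stem cells gave 1 call with DESeq2 and 0 in every other alternative run; the block changed no other count.

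Over 114 genes and 16 alternatives, 1655 values kept direction and side of the threshold, 90 lost the call, 58 gained it and 13 turned sign. Those 13 belong to genes near 0: Kit gave 0.010 with the Xist covariate. With 1 library left out, Kit ranged from -0.24 to 0.23 (positive without control library c, 0.23, high-fat library a, 0.13, or d, 0.11), Lgr5 from -0.36 to 0.18 (positive without control library b, 0.18, high-fat library a, 0.06, or c, 0.08), Cd24a from -0.00682 to 0.12 (negative without high-fat library b) and Ppara from -0.32 to 0.16 (positive without control library a, 0.09, or d, 0.036, or high-fat library a, 0.066, b, 0.16, or d, 0.000569). Depth limited Acacb and Acaa1b, with 9 and 19 counts in all control libraries together.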
